A study of Mus musculus with 8 samples.

Results

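Upper-layer cortical excitatory neurons were picked from single-nucleus RNA sequencing of the mouse brain by their transcript counts. A nucleus was kept when the authors had annotated it as a neuron and it held at least 2 unique molecular identifiers (UMIs, each 1 captured transcript) of Slc17a7, at most 1 of Gad1 and Gad2 together, at most 2 of Prox1, at least 3 of Cux2, at most 1 of Fezf2 and at most 2 of Foxp2. This gate kept 6321 of 45141 neuron nuclei, and of 61949 nuclei in all. The levels of the gate's own genes are therefore a description and carry no test.

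The nuclei came from mice of the strain C57BL6/J aged 6 months, from hemispheres from which the olfactory bulb and the cerebellum had been taken off. There were 4 genotypes with 2 libraries each: wild type (WT), Cnp-/-, 5xFAD and the cross Cnp-/-;5xFAD. Cnp-/- mice lack the myelin protein CNP, which oligodendrocytes make, while 5xFAD mice carry mutant human transgenes of familial Alzheimer's disease, APP among them, under the Thy1 promoter, which is used by neurons, and form amyloid plaques. The study asked how a myelin defect acts on amyloid disease. The reporting summary of the study has a pair of animals pooled into each single-cell replicate, whereas the methods state pooling for another dataset, of younger mice, and give only replicates for this one. Whether a library is a pool or 1 animal cannot be told apart from these, and a p-value here measures the spread between libraries, which may in part be technical. All libraries without CNP also carry the targeted allele with the stretch of chromosome inherited beside it, and the loss of the protein cannot be told apart from that stretch.

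Excitatory neurons of cortical layers 2 to 4 receive input from the thalamus and from other cortical areas and send axons mostly within the cortex, in contrast to the layer 5 and 6 neurons that project out of it. The transcription factor Cux2 marks them from the time of their birth, Slc17a7 encodes the vesicular glutamate transporter of cortical excitatory neurons, and Rorb, a nuclear receptor, is most abundant in those of layer 4. Gad1 and Gad2 make GABA in inhibitory neurons, Prox1 marks granule cells of the dentate gyrus, and Fezf2 and Foxp2 mark deep-layer neurons.

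The libraries held 6801 to 8824 nuclei each. The Cnp transcript checked the labels where it is most abundant, in oligodendrocytes, at 219 to 321 CPM (the UMIs of a gene scaled by all UMIs of the summed nuclei) in the 4 libraries with CNP and at 23.1 to 32.8 CPM in the 4 without. Of the members, 88 had a barcode that also occurred in another library, 6 to 19 a library. The sources differ on sex. The methods name both sexes for the study, and the reporting summary names females for the crosses with Cnp-/-, whereas the Y-linked gene Uty stood at 127 to 148 CPM and Xist at 0.309 to 0.578 CPM in all 8 libraries.

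Members held between 2100 and 100232 UMIs, with a median of 12702, and a median of 4226 genes. The median Cux2 count was 6 UMIs and the highest 39. At the edge of the gate, 1182 members held exactly 3 Cux2 UMIs, of which 57.6% lay in the authors' clusters 1 and 5, and 1363 nuclei with 2 Cux2 UMIs that met the other criteria stayed outside it, of which 50.2% lay in the same clusters. Nuclei on the inner side of this edge had a median of 10082.5 UMIs and those on the outer side 9867. Nuclei of clusters 1 and 5 lay on both sides.

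WT replicates 1 and 2 gave 543 and 922 members, Cnp-/- replicates 669 and 559, 5xFAD replicates 765 and 580, and Cnp-/-;5xFAD replicates 976 and 1307. Summed over the members, a library held between 7086521 and 17852488 UMIs. Cnp-/- replicate 2 was the shallowest, at a median of 10342 UMIs per member, and 5xFAD replicate 1 the deepest, at 14384.

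Cluster 1 of the authors held 2933 members, 46.4% of them, and was led by Ccbe1, Otof, Nectin3 and Rasgrf2. Cluster 5 held 931, or 14.7%, led by Rorb, Kcnh5 and Galntl6, cluster 0 held 802, or 12.7%, and cluster 20, led by Ntng1 and Angpt1, held 522. Cluster 0 members were deep nuclei, with a median of 23117 UMIs against 11691 in cluster 1, and cluster 0 was led by Erbb4, Nxph1 and Hs3st4, which are not upper-layer genes. The makeup of the members differed from library to library. Clusters 1 and 5 together took 65.6% and 61.3% of members in WT, 47.1% and 44.5% in Cnp-/-, 52.4% and 49.0% in 5xFAD, and 64.7% and 81.3% in Cnp-/-;5xFAD. The WT and Cnp-/-;5xFAD libraries were thus all above the libraries of the single mutants.

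Cluster 20 was absent from Cnp-/-;5xFAD replicate 2, where 0 of 1307 members allows a share of up to 0.23%, and no neuron of any kind in that library was in cluster 20. The same held for cluster 34 in that library. Cluster 14 had 0 members in both Cnp-/-;5xFAD libraries, 0 of 976 (up to 0.307%) and 0 of 1307, which had 30 and 11 neurons of that cluster outside the gate. Cluster 25 went the other way, with 37 of its 38 members in WT replicate 2. It was led by Ptgds, Ebf1 and Gabra6, a GABA receptor subunit of cerebellar granule cells.

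**Figure D1:**
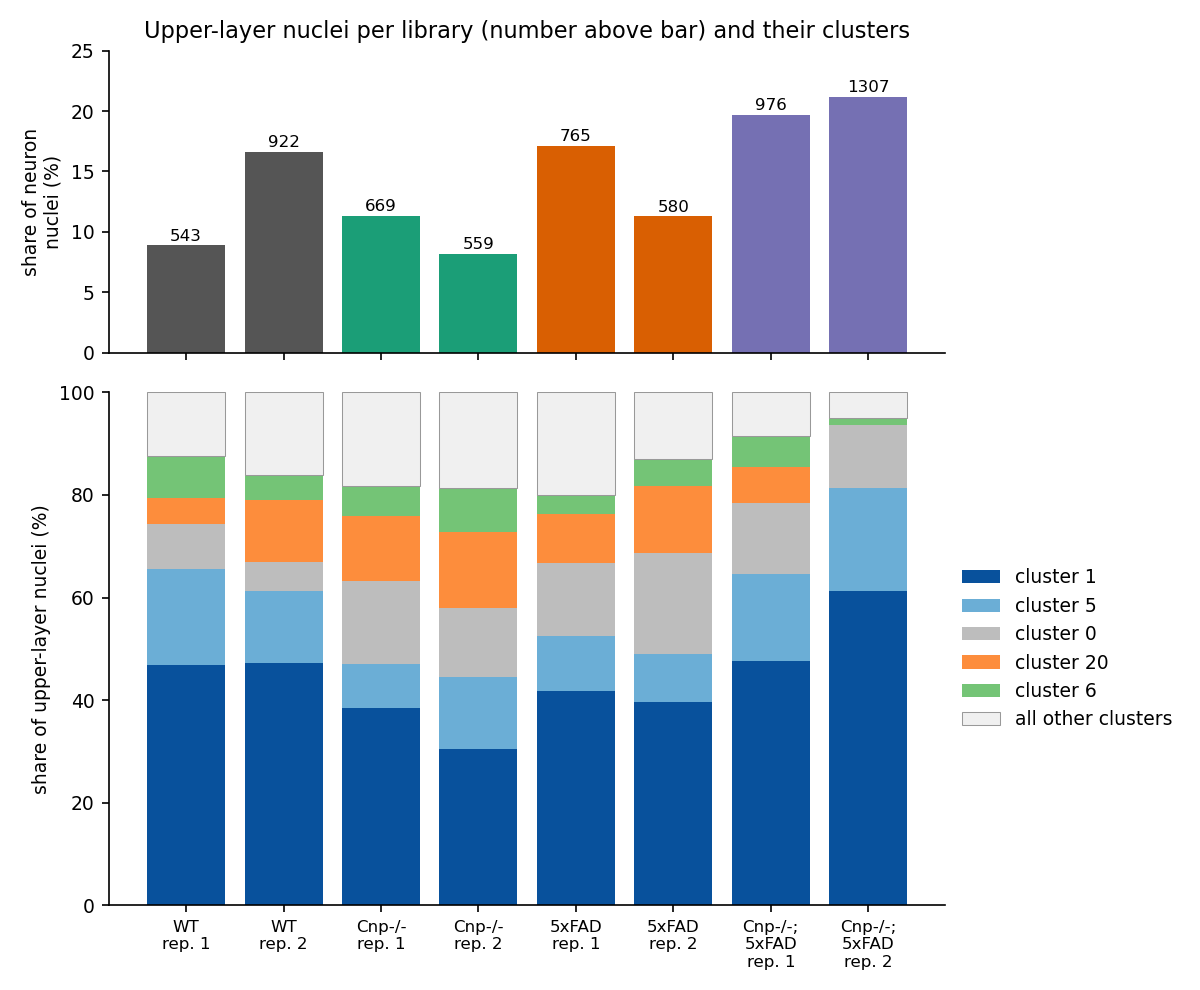
Members of the gate by library. The panels give the share of upper-layer nuclei among neuron nuclei (percent) and the makeup of those members by the authors' clusters (percent of members), with 1 bar for each of the 8 libraries. The highest shares, 19.7% and 21.1%, are those of the Cnp-/-;5xFAD libraries, and clusters 1 and 5 fill more of the members in WT and Cnp-/-;5xFAD than in either single mutant.

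Genes that the gate did not use gave the summed members an upper-layer profile, given here as a description because the genes were measured in the cells that were chosen. Of 19 upper-layer markers outside the gate, 19 had a higher mean level over libraries in the members than in all neurons, and 18 were higher than in layer 6 neurons. Layer 6 neurons were nuclei within the same Slc17a7, Gad1 plus Gad2 and Prox1 limits, with at least 6 Foxp2 and at most 1 Cux2 UMIs. Summed, the 19 stood at 3118 to 4073 CPM in the members of a library and at 1206 to 1630 CPM in its layer 6 neurons. Rasgrf2, a guanine nucleotide exchange factor of layer 2 and 3 neurons, had a median of 224 CPM in the members and 35.1 CPM in layer 6. Calb1, a calcium buffer, stood at 64.7 and 5.41 CPM, and Otof, encoding otoferlin, at 55.4 and 2.47 CPM. The homeobox gene Cux1 stood at 321 and 88.0 CPM.

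Deep-layer markers were low beside layer 6. Of 10 that neither gate used, 0 were higher in the members than in all neurons and 9 were lower than in layer 6. Their sum was 577 to 844 CPM in the members, 1228 to 1480 CPM in all neurons and 3440 to 4721 CPM in layer 6. A deep-layer class was also gated on Fezf2, with at least 3 Fezf2, at most 1 Cux2 and at most 2 Foxp2 UMIs. It did not stand apart in this way, since 4 of the 10 were higher in the members and its sum, 542 to 2373 CPM, overlapped theirs. Hs3st4, a heparan sulfate sulfotransferase of layer 6 neurons, stood at 192 CPM in the members against 2157 CPM in layer 6, Tle4 at 52.3 against 407 CPM and Bcl11b at 64.4 against 210 CPM. Tshz2, a zinc finger gene of a layer 5 subtype, was the deep-layer marker higher in the members than in layer 6, at 267 against 128 CPM. It was the leading gene of clusters 27 and 21, which held 206 and 128 members. Cluster 27 held 0.552% of members in WT replicate 1 and 6.28% in Cnp-/- replicate 1, the lowest and highest shares. The part of these clusters in the level of Tshz2 was not tested.

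The marker sums differed between clusters of members. In cluster 1 the 10 deep-layer markers summed to 112 to 297 CPM in a library and the 19 upper-layer markers to 4009 to 4617 CPM, and in cluster 5 to 383 to 735 and 3602 to 5208 CPM. Members of cluster 0 had 1080 to 1444 CPM of deep-layer and 2520 to 3364 CPM of upper-layer markers, and those of the remaining clusters 806 to 1245 and 2565 to 3159 CPM. All neurons had 2334 to 3024 CPM of upper-layer markers, so that cluster 0 and the remaining clusters both overlapped all neurons in both sums.

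Transcripts of other cell types were low but not all at 0. Oligodendrocyte markers summed to 120 to 182 CPM in a library's members, astrocyte markers to 165 to 257 CPM, microglial markers to 42.6 to 64.7 CPM and endothelial markers to 0 to 4.94 CPM. Hippocampal markers summed to 4.35 to 9.58 CPM. Interneuron markers, among them the gate genes Gad1 and Gad2, summed to 39.2 to 169 CPM, and to 89.9 to 417 CPM in cluster 0. Of the 9, 5 were tested, and 0 of 5 were positive for 5xFAD (median log2 fold change -0.60) and for the interaction of both genotypes (median -1.06), none past the test. The gate capped Gad1 and Gad2 of this list, so its signs and medians are a description and give no support. Striatal markers reached 692 to 1160 CPM, nearly all of it Pde10a, a phosphodiesterase that cortical neurons also use.

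**Figure D2:**
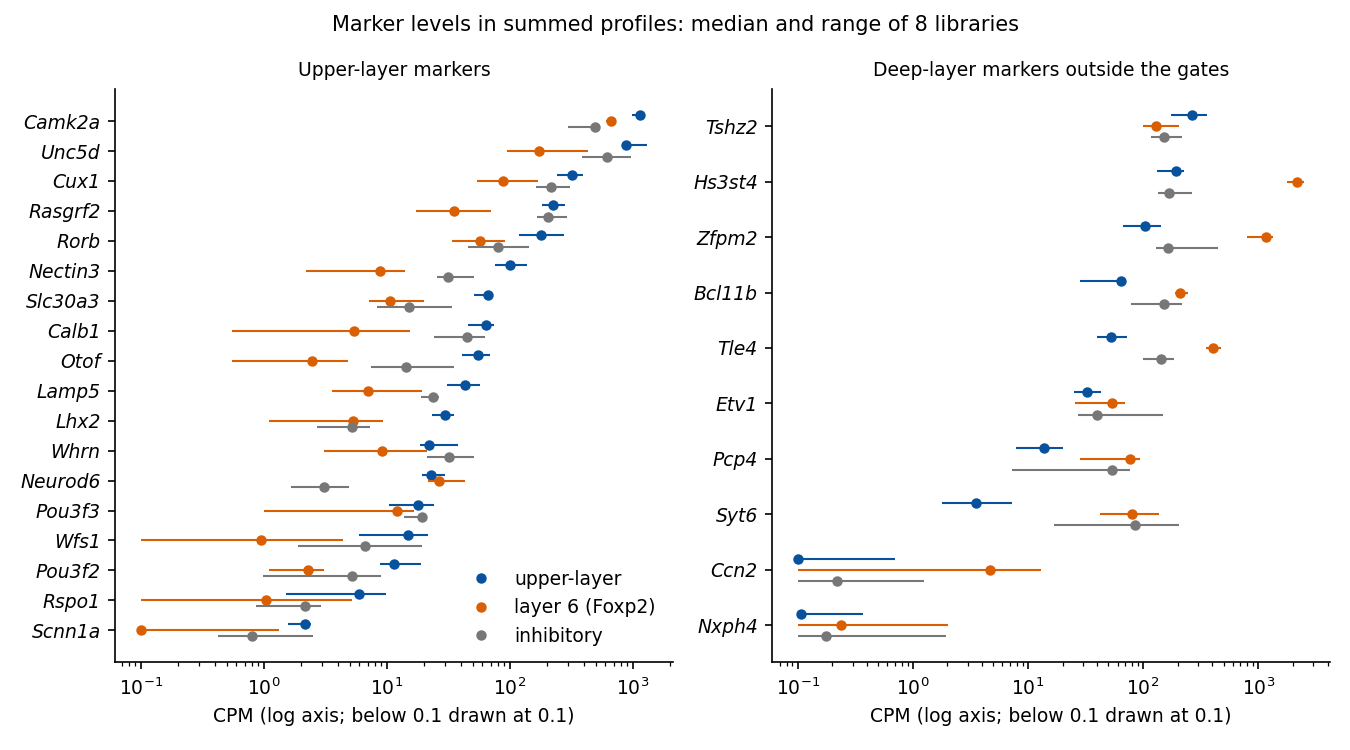
Levels of marker genes in upper-layer, layer 6 and inhibitory neurons, for 18 of the 19 upper-layer markers and the 10 deep-layer markers outside the gates. The axis gives CPM on a log scale, points are medians and lines the range of the 8 libraries. Upper-layer markers such as Rasgrf2, Calb1 and Otof sit higher in the members than in layer 6 neurons, and Hs3st4 and Tle4 sit lower.

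Within the members, clusters 1 and 5 carried different upper-layer programs. Rasgrf2 had a median of 365 CPM in cluster 1 and 151 CPM in cluster 5, Otof 106 and 2.15 CPM, and Calb1 98.4 and 25.0 CPM. Rorb was the reverse, at 84.4 and 821 CPM, as was Whrn, encoding whirlin, at 5.29 and 81.3 CPM. Cux2 itself was similar in both, at 544 and 481 CPM. Members of cluster 1 were thus high in Rasgrf2 and Otof and those of cluster 5 in Rorb.

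Of all members, 1852, or 29.3%, held at least 3 Rorb UMIs. The share was 86.6% in cluster 5 and 13.8% in cluster 1. For comparison, 8.97% of layer 6 neurons, at a median depth of 11244.5 UMIs, reached 3 Rorb UMIs, as did 10.4% of inhibitory neurons, at 7810 UMIs, and 0.0178% of oligodendrocytes, at 1515 UMIs. By library the share of Rorb members was 28.2% and 25.5% in WT, 21.7% and 25.0% in Cnp-/-, 22.6% and 26.7% in 5xFAD and 38.9% and 36.0% in Cnp-/-;5xFAD. The Cnp-/-;5xFAD libraries were the highest pair, and the other 6 overlapped. With every member thinned to 5000 UMIs the shares were 15.9%, 14.8%, 9.53%, 14.1%, 10.3%, 11.0%, 21.2% and 20.2% in the same order, after 8 to 48 shallower members a library were left out.

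The question of whether upper-layer neurons were lost or gained was put to the share of members among neuron nuclei. That share was 8.87% and 16.6% in WT, 11.3% and 8.17% in Cnp-/-, 17.1% and 11.3% in 5xFAD, and 19.7% and 21.1% in Cnp-/-;5xFAD. The Cnp-/-;5xFAD libraries were the highest, the other genotypes overlapped, and the WT pair lay far apart. Libraries with the transgenes had 17.3% ± 4.35 (SD, n = 4) and those without 11.3% ± 3.83, a difference of 6.07 percentage points that did not pass the two-sided exact permutation test over libraries (p = 0.0857, adjusted p = 0.343 over 4 share tests), whose smallest possible p is 0.0286. The 5xFAD difference was 7.28 points with excitatory nuclei as the denominator (exact permutation p = 0.143) and 3.22 points with all nuclei (exact permutation p = 0.2). With at least 6 Cux2 UMIs required it was 3.79 points, 9.13% against 5.34% (exact permutation p = 0.0857). Libraries without CNP had 15.1% ± 6.32 and those with it 13.5% ± 4.06, a difference of 1.61 points (exact permutation p = 0.657, adjusted p = 0.657). It was 0.40 points with excitatory nuclei as the denominator, 0.48 with at least 6 Cux2 UMIs and 1.41 with all nuclei (exact permutation p = 1.0, 0.8 and 0.6). Leaving out any library moved this difference by more than 1.5 times. It was 0.079 points without WT replicate 1 and 2.66 without its replicate 2, 2.86 and 3.92 without Cnp-/- replicates 1 and 2, 2.84 and 0.881 without 5xFAD replicates 1 and 2, and 0.0757 and -0.403 without Cnp-/-;5xFAD replicates 1 and 2.

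Neurons were then thinned to 5000 UMIs, with shallower ones left out and the Cux2 minimum lowered from 3 to 2 UMIs. The share was 5.11%, 6.61%, 5.10%, 5.51%, 5.47%, 4.45%, 7.65% and 10.7% from WT replicate 1 to Cnp-/-;5xFAD replicate 2. The difference for loss of CNP was 1.84 points (exact permutation p = 0.229), and the 5xFAD difference fell to 1.5 points (exact permutation p = 0.4). Thinning left out between 296 and 2500 neurons a library, and its part in this cannot be told apart from that of the lower minimum. The Rorb share differed by 5.98 points between libraries with and without the transgenes, 31.1% ± 7.68 against 25.1% ± 2.67 (exact permutation p = 0.257, adjusted p = 0.514). With loss of CNP it differed by 4.67 points, 30.4% ± 8.36 against 25.8% ± 2.36 (exact permutation p = 0.4, adjusted p = 0.533). With members thinned to 5000 UMIs the differences were 2.08 points for 5xFAD and 3.23 points for loss of CNP (exact permutation p = 0.457 and 0.4). Taking all neurons of clusters 1 and 5 without the gate, the differences in share were 11.1 points for 5xFAD and 7.77 points for loss of CNP (exact permutation p = 0.114 and 0.371). None of these shares passed its test.

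The comparison for loss of CNP gave a count of genes that depended on the setting. For this comparison the UMIs of all members of a library were summed, and the 4 libraries without CNP were set against the 4 with it by edgeR's quasi-likelihood test on 16187 genes. It called 4 genes at an adjusted p below 0.05, 0.0247% of those tested, of which 1 was higher (0.00618%) and 3 were lower (0.0185%) without CNP, and 634 genes had an unadjusted p below 0.05. Without the filter on low counts edgeR called 148 of 26247 genes, with 16 higher and 132 lower, and DESeq2 called 16. DESeq2 gave no adjusted p for 1256 of the 16187 genes. The 3 that fell, A830036E02Rik, Krt12 and Krt20, lie side by side on chromosome 11, the chromosome of Cnp. The 1 that rose, Adap1, lies on chromosome 5.

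A830036E02Rik, a long noncoding transcript annotated as antisense, stood at 98.8 and 100.4 CPM in WT and at 79.4 and 84.4 CPM in 5xFAD, against 1.08 and 0.282 CPM in Cnp-/- and 1.28 and 1.12 CPM in Cnp-/-;5xFAD. These values rest on 796 to 1351 UMIs in libraries with CNP and on 2 to 20 in those without. The groups did not overlap, and the transcript was close to absent without CNP. The mean was 0.939 ± 0.447 CPM without CNP and 90.7 ± 10.4 CPM with it (SD, n = 4), and the log2 fold change was -6.54 ± 0.15 (SE, edgeR adjusted p = 1.5e-06). The SE of a fold change here and below was worked back from the F value of the test.

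Krt12, encoding a keratin best known from the cornea, stood at 46.7 and 36.7 CPM in WT, 37.2 and 49.4 CPM in 5xFAD, 2.05 and 1.98 CPM in Cnp-/- and 2.94 and 3.87 CPM in Cnp-/-;5xFAD. It was low in every library without CNP, and its log2 fold change was -3.98 ± 0.17 (edgeR adjusted p = 7.47e-05). Krt20, a keratin of intestinal epithelium, had 43 to 71 UMIs in each library with CNP and 1 to 6 in each without, or 4.01 to 5.28 CPM against 0.0978 to 0.336 CPM. Its mean level was under the minimum of 5 CPM set for naming genes, and it is named because the count of calls was small. Its log2 fold change was -4.53 ± 0.29 (edgeR adjusted p = 0.00147).

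Adap1 encodes a GTPase-activating protein for Arf6 with pleckstrin homology domains that is abundant in neurons. It stood at 86.0 and 85.6 CPM in WT and 90.6 and 94.7 CPM in 5xFAD, against 144 and 158 CPM in Cnp-/- and 151 CPM in each of the Cnp-/-;5xFAD libraries. All 4 libraries without CNP were above all 4 with it. The log2 fold change was 0.78 ± 0.06 (edgeR adjusted p = 0.00255), from 89.2 ± 4.30 to 151 ± 5.62 CPM (SD, n = 4). The fifth smallest p belonged to Gm37584, at 0.909 to 1.33 CPM with CNP and 0.128 to 0.282 CPM without, which did not pass (log2 fold change -2.48 ± 0.43, edgeR adjusted p = 1.0).

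**Figure D3:**
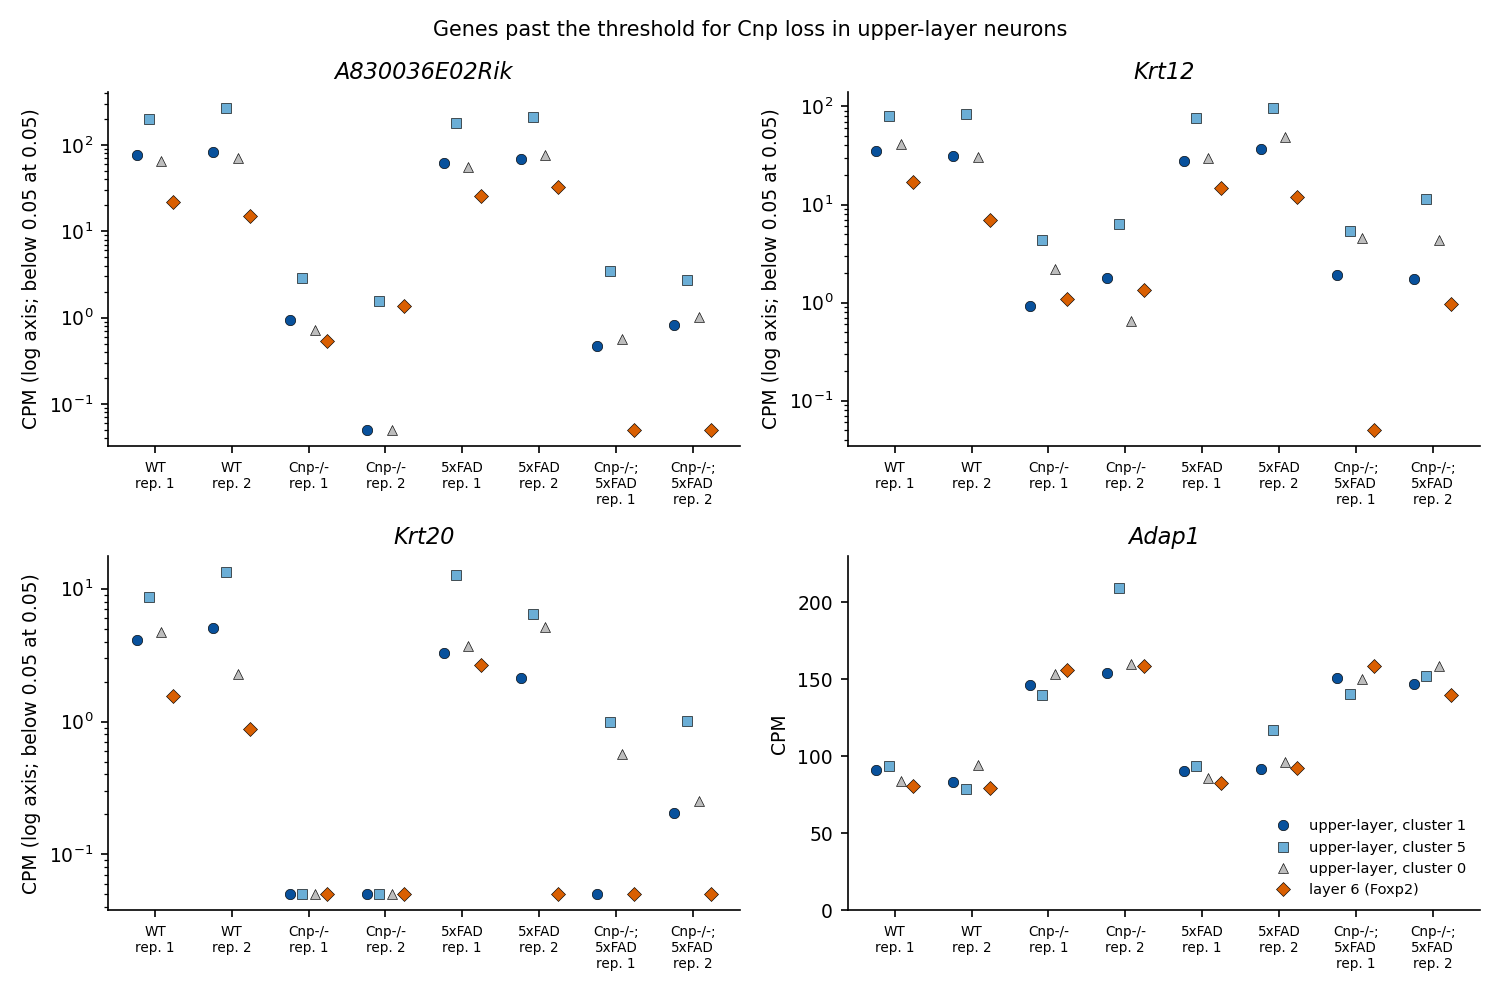
Levels in upper-layer neurons of the genes called for loss of CNP. The axes give CPM, on a log scale except for Adap1, and each point is a class of nuclei in the library named below it. A830036E02Rik, Krt12 and Krt20 are low in the 4 libraries without CNP. Summed over all members, a profile that is not drawn, Adap1 is between 144 and 158 CPM there against 85.6 to 94.7 CPM in the others.

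Within the 5xFAD background alone, the same comparison of Cnp-/-;5xFAD with 5xFAD shares its libraries with the one above. It called 4 of 16187 genes, 0.0247%, with 1 higher (0.00618%) and 3 lower (0.0185%), and 1172 had an unadjusted p below 0.05. Without the filter on low counts edgeR called 390 of 26247 genes, and DESeq2 called 123, with no adjusted p for 1883 of the 16187. A830036E02Rik had a log2 fold change of -6.04 ± 0.20 (edgeR adjusted p = 2.19e-05), Krt12 of -3.61 ± 0.22 (adjusted p = 0.00124), Krt20 of -3.69 ± 0.36 (adjusted p = 0.0335) and Adap1 of 0.75 ± 0.08 (adjusted p = 0.0480). A830009L08Rik came next, at 1.27 ± 0.14, and did not pass (edgeR adjusted p = 0.0587). It was called under some alternative settings, though not under most. Krt20 and Adap1 lost this call without any single library, with the replicate block, the stricter Cux2 gate, possible doublets left out and equal nuclei, while their fold changes with a library left out stayed between -3.82 and -3.54 and between 0.73 and 0.77. Without Cnp-/-;5xFAD replicate 1 the count of calls was 35, while without any other single library it was 2.

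The places of the 4 genes were read from the GENCODE annotation of GRCm38, the assembly also called mm10. A830036E02Rik lies on the plus strand at chr11:99416956-99425497 and Krt12 on the minus strand at chr11:99415666-99422259, with 5304 bases in common. Whether counting used the strand is not stated, so it is not known whether reads from this pair were kept apart. Krt20 follows on the minus strand at chr11:99428403-99438150, and Cnp lies on the plus strand at chr11:100574904-100591729. Adap1 lies on the minus strand at chr5:139271876-139325622. Within 2 Mb of Cnp on either side, 86 genes were tested, of which 3 were called lower and 0 higher by edgeR, 7 had an unadjusted p below 0.05, and the median log2 fold change was -0.068. Over all 16187 genes 4 were called, 0.0247%, and 634 had an unadjusted p below 0.05.

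The promoters of these 4 genes are shown because the 3 neighbours fell together while Adap1, elsewhere, rose. Each is a window of 300 bases from RefSeq (GRCm38.p6), from 250 bases before the start of transcription to 50 after it, 5′ to 3′ on the gene's own strand. The start is that of RefSeq, which for A830036E02Rik, Krt20 and Adap1 is not the GENCODE start given above, so that the window of A830036E02Rik lies wholly inside the gene as GENCODE places it. Capitals mark the letters TATAAA, a core promoter motif, and GGGCGG or its complement CCGCCC, a motif of housekeeping promoters bound by Sp1, each searched on both strands. The windows are chr11:99416993-99417292 for A830036E02Rik, chr11:99422210-99422509 for Krt12, chr11:99438104-99438403 for Krt20 and chr5:139325415-139325714 for Adap1.
A830036E02Rik: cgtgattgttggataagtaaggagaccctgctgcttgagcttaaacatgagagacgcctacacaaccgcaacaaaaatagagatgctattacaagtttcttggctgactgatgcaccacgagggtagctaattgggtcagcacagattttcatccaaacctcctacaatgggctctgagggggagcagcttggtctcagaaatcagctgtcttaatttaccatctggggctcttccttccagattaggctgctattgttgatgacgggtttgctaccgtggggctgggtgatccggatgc
Krt12: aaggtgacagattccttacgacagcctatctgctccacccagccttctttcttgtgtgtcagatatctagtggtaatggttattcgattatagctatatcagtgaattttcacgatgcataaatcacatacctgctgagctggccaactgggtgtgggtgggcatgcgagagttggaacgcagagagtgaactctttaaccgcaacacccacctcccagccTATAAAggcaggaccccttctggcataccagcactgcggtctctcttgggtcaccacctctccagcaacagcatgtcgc
Krt20: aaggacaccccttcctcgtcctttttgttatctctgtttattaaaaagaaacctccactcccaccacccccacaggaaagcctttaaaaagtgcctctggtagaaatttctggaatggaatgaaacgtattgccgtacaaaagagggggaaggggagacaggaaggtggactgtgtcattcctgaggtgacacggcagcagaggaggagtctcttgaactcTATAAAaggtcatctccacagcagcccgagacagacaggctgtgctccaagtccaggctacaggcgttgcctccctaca
Adap1: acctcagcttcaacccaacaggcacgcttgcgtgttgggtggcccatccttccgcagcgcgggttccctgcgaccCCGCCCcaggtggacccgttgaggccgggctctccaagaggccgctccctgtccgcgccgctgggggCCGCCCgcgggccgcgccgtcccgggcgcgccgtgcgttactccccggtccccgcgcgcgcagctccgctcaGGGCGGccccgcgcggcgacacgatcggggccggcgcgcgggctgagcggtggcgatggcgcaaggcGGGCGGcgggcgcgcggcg
TATAAA had 1 match in Krt12 and 1 in Krt20, and 13.6% of all 32851 promoter windows hold it. The GGGCGG motif had 4 matches in Adap1, against a share of 35.7% of windows with a match, and 0 in the other windows. The window of Krt12 lies within A830036E02Rik, whose own window held neither motif. A match is a description of letters and not of a bound site.

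Adap1 and A830036E02Rik changed the same way in other neurons, given here as levels. In layer 6 neurons Adap1 was at 79.8 to 92.5 CPM with CNP and 140 to 159 CPM without, and in inhibitory neurons at 53.5 to 76.3 and 89.3 to 114 CPM, whereas in oligodendrocytes the groups overlapped, at 236 to 306 and 204 to 273 CPM. A830036E02Rik was highest in cluster 5, where it stood at 182 to 267 CPM with CNP and at 1.57 to 3.46 CPM without. It was at 14.9 to 32.2 CPM in layer 6 neurons with CNP and at 0 to 1.36 CPM without. Fitted within the members of cluster 1 alone, edgeR called A830036E02Rik, Krt12 and Adap1 for loss of CNP, 3 of 13097 genes or 0.0229%, and within cluster 5 alone A830036E02Rik and Krt12, 2 of 10235 or 0.0195%. The calls lost there kept folds of like size or larger, with Adap1 at 0.76 in cluster 5 (edgeR adjusted p = 0.194) against 0.78 over all members, and Krt20 at -5.83 in cluster 1 and -5.05 in cluster 5 (edgeR adjusted p = 0.640 and 0.194) against -4.53. For Cnp-/-;5xFAD against 5xFAD the calls were 2 in cluster 1, 0.0153%, and 2 in cluster 5, 0.0195%. The test of whether loss of CNP changed Adap1 more in upper-layer than in layer 6 neurons did not pass (log2 difference -0.13, edgeR adjusted p = 0.995).

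Cnp itself was low in upper-layer neurons of every genotype, at 11.1 and 2.97 CPM in WT, 10.8 and 7.34 CPM in Cnp-/-, 10.6 and 6.04 CPM in 5xFAD and 9.78 and 8.74 CPM in Cnp-/-;5xFAD. Its groups overlapped and its change did not pass (log2 fold change 0.30 ± 0.39, edgeR adjusted p = 1.0). It had no stable direction, at -0.062 without WT replicate 2 and 0.91 without WT replicate 1. Free RNA as its source was not tested.

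In the fit over all libraries and filtered genes no gene of upper-layer neurons passed edgeR's threshold for the 5xFAD transgenes. Between the 4 libraries with the transgenes and the 4 without, edgeR called 0 of 16187 genes (0.0%), while 941 had an unadjusted p below 0.05. Without the filter on low counts edgeR called 291 of 26247 genes, and DESeq2's Wald test called 27. DESeq2 gave no adjusted p for 13494 of the 16187 genes here, so its calls come from far fewer genes than those of edgeR. Without Cnp-/- replicate 1 edgeR called 23. In the filtered fit over all libraries the smallest edgeR adjusted p was 0.471, which the 5 genes with the smallest p, given here, all had. Each of the 5 was called under 1 or 2 alternative settings and not under the others.

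Ebf1, a transcription factor of developing lymphocytes and striatal neurons, stood at 12.9 and 29.0 CPM in WT and at 1.29 to 2.96 CPM in the other 6 libraries (log2 fold change -2.19 ± 0.32). WT replicate 2, with the higher value, held 37 members of cluster 25, of which Ebf1 is a leading gene, whereas WT replicate 1 held 1 and still stood above the other 6 libraries. The part of cluster 25 in this was not tested. Ubash3b, a phosphatase-like regulator of receptor signalling, stood at 23.9 and 24.7 CPM in WT and 33.2 and 45.9 CPM in Cnp-/-, against 9.30 to 18.6 CPM in the 4 transgenic libraries (-1.24 ± 0.18). Vmn2r1, a vomeronasal receptor gene, was at 2.30 to 3.10 CPM without and 5.07 to 8.12 CPM with the transgenes (1.28 ± 0.19). The ranges of both genes did not overlap.

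Fbn1, encoding the matrix protein fibrillin, was at 15.4 to 19.7 CPM without and 24.5 to 27.0 CPM with the transgenes (log2 fold change 0.53 ± 0.08). Pde10a was at 905, 965, 997 and 1141 CPM in the libraries without the transgenes and at 688, 664, 896 and 808 CPM in those with them (-0.42 ± 0.06), without overlap. DESeq2 called Pde10a (adjusted p = 4.62e-07), and in cluster 1 alone edgeR gave -0.56. Pde10a is also a striatal marker and makes up nearly all of the summed striatal list, so that sum, at 916 to 1160 CPM without and 692 to 908 CPM with the transgenes, adds nothing to it. Of the 6 striatal genes 3 had a positive 5xFAD effect, with a median of -0.0073 and Drd2, a dopamine receptor, at 0.81, and none passed. The part of striatal RNA in this was not tested.

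The mouse gene App, which encodes the amyloid precursor, stood at 360 to 396 CPM without and 358 to 382 CPM with the transgenes (log2 fold change -0.05 ± 0.05, edgeR adjusted p = 0.948), and the groups overlapped. Whether the human transgene transcripts were counted under the mouse symbols is not stated.

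Thy1, a surface glycoprotein of neurons whose promoter drives the transgenes, was lowest in the Cnp-/-;5xFAD libraries. It stood at 35.9 and 35.1 CPM in WT, 37.6 and 31.9 CPM in Cnp-/-, 45.0 and 32.2 CPM in 5xFAD and 16 and 10.1 CPM in Cnp-/-;5xFAD. The 5xFAD libraries lay with the controls, and only the Cnp-/-;5xFAD libraries were apart. In the fit over all libraries and filtered genes, none of the 4 genotype tests of Thy1 over all upper-layer members passed in edgeR. The effect of CNP loss was -0.78 ± 0.17 (adjusted p = 1.0), the 5xFAD effect -0.67 ± 0.17 (adjusted p = 0.844), the interaction -1.51 ± 0.33 (adjusted p = 0.222), and Cnp-/-;5xFAD against 5xFAD -1.53 ± 0.24 (adjusted p = 0.237). These calls depended on the setting. Without the filter on low counts edgeR called all 4 tests, with adjusted p = 4.1e-06, 0.000148, 5.27e-06 and 4.14e-10 in that order. That fit called 148, 291, 524 and 390 of 26247 genes in these comparisons. The 5xFAD effect on Thy1 was -0.67 in it as in the filtered fit, so the change was no larger there. DESeq2 called loss of CNP (adjusted p = 0.0368), the interaction (adjusted p = 0.00756) and Cnp-/-;5xFAD against 5xFAD (adjusted p = 1.05e-05), and without Cnp-/-;5xFAD replicate 1 edgeR called the last (-1.90, adjusted p = 0.0477).

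Thy1 differed by class of neuron. In cluster 1 it stood at 36.3, 35.1, 32.9 and 33.9 CPM in the libraries without the transgenes, at 29.0 and 15.2 CPM in 5xFAD and at 6.66 and 4.32 CPM in Cnp-/-;5xFAD, so that every transgenic library was below every other (log2 fold change -1.67 ± 0.21, edgeR adjusted p = 0.240). Cluster 5 was like it except for 5xFAD replicate 1, with 32.0 to 47.2 CPM without the transgenes, 40.7 and 22.5 CPM in 5xFAD and 8.39 and 3.04 CPM in Cnp-/-;5xFAD. In cluster 0 the groups overlapped, at 23.7 to 38.6 CPM without and 26.4 to 58.5 CPM with the transgenes.

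In layer 6 neurons Thy1 was highest in the Cnp-/-;5xFAD libraries, at 86.4 and 63.8 CPM. It stood there at 28.0 and 54.4 CPM in WT, 35.6 and 20.4 CPM in Cnp-/- and 62.0 and 49.3 CPM in 5xFAD. The groups with and without the transgenes overlapped, and no genotype test was run within layer 6. Deep-layer neurons gated on Fezf2 stood at 36.0 to 59.8 CPM without and 79.1 to 166 CPM with the transgenes, on 3 to 19 UMIs a library.

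The direct test of this difference took the 5xFAD effect in upper-layer neurons minus that in deep-layer neurons. For Thy1 it was -2.00 ± 0.47 against the Fezf2 class (edgeR adjusted p = 0.0408). That call was kept without 5xFAD replicate 1 (adjusted p = 0.0426) and lost without any other library, with the largest adjusted p of 0.616 without Cnp-/-;5xFAD replicate 2, while the difference stayed between -2.25 and -1.74. It was also lost without the filter on low counts (-2.01, edgeR adjusted p = 0.0572). Against layer 6 neurons it was -1.51 ± 0.18 (adjusted p = 0.00138) and remained between -1.84 and -1.34 with an adjusted p of at most 0.00192 when each library was left out. The members of cluster 1 against layer 6 gave -2.48 ± 0.24 (adjusted p = 0.000531). Thy1 was at 0.74 to 3.52 CPM in the nuclei that were not neurons. A change in the mouse gene, reads of the transgene and a change in the makeup of the gated nuclei cannot be told apart in summed counts of this kind.

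**Figure D4:**
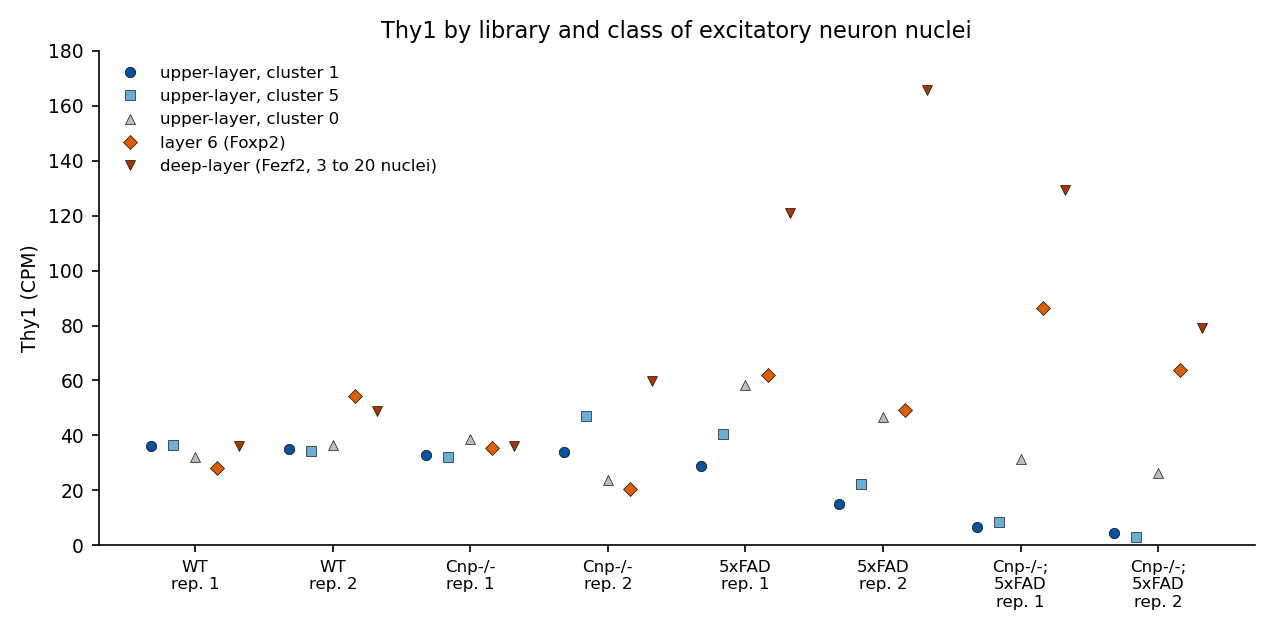
Thy1 by class of neuron. The axis gives CPM, and each point is a class of neuron in the library named below it. The classes are members of clusters 1, 5 and 0, layer 6 and the Fezf2 class. In cluster 1 the Cnp-/-;5xFAD libraries are at 6.66 and 4.32 CPM, while in layer 6 they are at 86.4 and 63.8 CPM.

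The interaction asks whether loss of CNP acted differently with and without the transgenes. It is the log2 difference between Cnp-/-;5xFAD and 5xFAD minus that between Cnp-/- and WT. The edgeR test called 0 of 16187 genes (0.0%), with 1352 at an unadjusted p below 0.05, DESeq2 called 204, and without Cnp-/-;5xFAD replicate 1 edgeR called 36. Without the filter on low counts edgeR called 524 of 26247 genes. DESeq2 gave no adjusted p for 3766 of the 16187 here. In the filtered fit over all libraries the smallest edgeR adjusted p was 0.149, which the 5 genes with the smallest p, given here, all had. Each of the 5 was called under some alternative settings, though not under most.

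Plcb4, encoding a phospholipase C of metabotropic receptor signalling, stood at 148 and 169 CPM in WT, 92.5 and 102 CPM in Cnp-/-, 96.1 and 98.6 CPM in 5xFAD and 128 and 147 CPM in Cnp-/-;5xFAD (interaction 1.25 ± 0.14). The single mutants lay below both other genotypes. A830009L08Rik, a noncoding transcript, followed the same order at 18.4 and 17.2, 12.1 and 12.6, 9.62 and 9.33, and 20.3 and 24.0 CPM (1.79 ± 0.20). Exph5, which encodes an effector of Rab27, did so at 70.5 and 70.4, 43.6 and 45.6, 53.4 and 43.6, and 74.7 and 72.0 CPM (1.29 ± 0.16).

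Gm14211, which lies within Plcb4 on the opposite strand, had an interaction of 1.76 ± 0.22. Whether its reads were kept apart from those of Plcb4 is likewise not known. Plcb4 lies at chr2:135659011-136014593 on the plus strand and Gm14211 at chr2:135686174-135693154 on the minus strand. Crim1, a transmembrane protein that binds bone morphogenetic proteins, was the reverse, at 92.5 to 100 CPM in WT, 113 to 130 CPM in the single mutants and 75.7 to 78.3 CPM in Cnp-/-;5xFAD (-0.99 ± 0.13).

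These patterns ran beside the makeup of the members, since clusters 1 and 5 held 61.3% to 81.3% of members in WT and Cnp-/-;5xFAD and 44.5% to 52.4% in the single mutants. The 19 upper-layer markers, none of them in the gate, had an interaction median of 0.58 (16 positive), beside 0.0081 over all genes. The deep-layer and interneuron lists hold genes that the gate capped, so their medians are a description and give no support. They were -0.83 for the 10 tested deep-layer markers (2 positive) and -1.06 for the 5 tested interneuron markers (0 positive). No gene of these lists passed. Their part in these patterns was not tested. Rorb, the leading gene of cluster 5, had an interaction of 1.46 ± 0.21 over all members (edgeR adjusted p = 0.159), of 0.86 in cluster 1 alone and of 0.75 in cluster 5 alone. In cluster 1 alone the interaction was 0.68 for Plcb4, 1.10 for A830009L08Rik, 0.76 for Exph5, 1.69 for Gm14211 and -0.67 for Crim1. In cluster 5 alone it was 0.88, 1.42, 0.88, -0.37 and -1.40 for the same genes. All but Gm14211 kept their sign within each cluster. In cluster 5 alone edgeR called 10 of 10235 genes for the interaction, 0.0977%, and in cluster 1 alone it called 0 of 13097, with 893 at an unadjusted p below 0.05.

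In the fit over all libraries and filtered genes no gene of the neuronal gene lists was called. Of 13 lists with 158 tested genes, 0 genes passed edgeR's test there in any of the 4 genotype comparisons, while Thy1, which is in 1 of the lists, was called under the other settings given above. The shares called over all genes were the 0.0247%, 0.0%, 0.0% and 0.0247% given above, so that a count of 0 in lists of this size is near the background. The medians of the lists are given as values, beside a median over all genes of -0.0024 for loss of CNP, 0.0014 for 5xFAD and 0.0081 for the interaction.

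Lists of transmitter receptors and release had medians close to these, with single genes on both sides. The 20 glutamate receptor genes had a median log2 fold change of 0.01 for loss of CNP and -0.03 for 5xFAD, with Grm5, a metabotropic receptor, at 0.08 and -0.02 and Grin2b, an NMDA receptor subunit, at 0.03 and -0.04. The 12 GABA-A receptor genes had medians of 0.03 and 0.05, and the 20 genes of presynaptic release 0.03 and -0.06, with Rims1, an active zone scaffold, at 0.06 and -0.16. The widest values were those of Grik1, a kainate receptor subunit, at 0.45 ± 0.33 and -0.71 ± 0.33, and of Vamp2, a vesicle protein, at -0.26 ± 0.35 and 0.45 ± 0.35, none past the test. For the interaction the 3 lists had medians of -0.08, -0.01 and 0.13, with Grik1 at 1.62 ± 0.65 and Grin3a, an NMDA receptor subunit, at -1.08 ± 0.34 (edgeR adjusted p = 0.558 and 0.380). The axon initial segment and node list, where Ank3 anchors sodium channels, had medians of 0.03 and -0.03, and the 18 genes of axonal transport and the cytoskeleton -0.01 and -0.06.

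The amyloid processing list had medians of 0.03 for loss of CNP and 0.02 for 5xFAD. Sorl1, a sorting receptor that holds the amyloid precursor away from secretases, stood at 0.12 ± 0.11 and -0.26 ± 0.11, and Mapt, encoding tau, at 0.06 ± 0.08 and 0.05 ± 0.08. Of the 9 tested genes of axon injury and integrated stress, 1 had a positive 5xFAD value and the median was -0.09. Gap43, a growth-associated protein, stood at -0.21 ± 0.09. The 9 genes of glucose and lactate use had medians of -0.05 and -0.02.

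The sterol synthesis genes had a uniform sign for 5xFAD and for loss of CNP. All 14 genes had a positive log2 fold change for 5xFAD, with a median of 0.42, and 0 of 14 had a positive one for loss of CNP, with a median of -0.19, and none passed the test. The 14 were measured in the same libraries and are not separate observations, so their shared sign is a description and was not tested. Hmgcs1, an early enzyme of the pathway, stood at 28.3 and 24.0 CPM in WT, 24.5 and 14.3 CPM in Cnp-/-, 34.5 and 47.4 CPM in 5xFAD and 33.6 and 24.9 CPM in Cnp-/-;5xFAD (5xFAD 0.59 ± 0.19, edgeR adjusted p = 0.844). Cnp-/- replicate 2, the shallowest library, was the lowest, and groups with and without the transgenes overlapped. In cluster 1 alone 11 of 12 tested genes of the list were positive for 5xFAD, with a median of 0.18, and in cluster 5 alone 12 of 14, with a median of 0.44.

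Activity, stress and mitochondrial genes were described next, and none passed the test in these comparisons. The 19 tested immediate early genes, which neurons switch on with firing, had a median of -0.33 for 5xFAD and -1.12 for the interaction. For loss of CNP the median was 0.0026, with 10 genes positive. Homer1, a postsynaptic scaffold gene with an activity-induced short form, stood at 509 and 335 CPM in WT, 308 and 291 CPM in Cnp-/-, 246 and 221 CPM in 5xFAD and 391 and 310 CPM in Cnp-/-;5xFAD (interaction 1.12 ± 0.28, edgeR adjusted p = 0.269). Homer1 was the most abundant gene of the list, and its interaction was opposite in sign to the list median. The 5 tested heat shock genes had a median of 0.57 for 5xFAD and of -0.21 for loss of CNP, where 0 of 5 were positive. Among them Hsp90aa1, a chaperone, ranged from 2.96 CPM in Cnp-/- replicate 2 to 34.8 CPM in 5xFAD replicate 1, with 11.1 and 5.05 CPM in WT, so that its spread within genotypes was as wide as that between them (5xFAD 0.92 ± 0.54, adjusted p = 0.899). Of the 13 genes of the mitochondrial genome, whose RNA is mostly outside nuclei, 4 were abundant enough to test. Their median was -0.39 for loss of CNP, -1.43 for 5xFAD and 1.13 for the interaction, with mt-Atp6, a subunit of ATP synthase, at -1.78 ± 0.51 for 5xFAD (edgeR adjusted p = 0.844) and a mean of 0.999 CPM.

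**Figure D5:**
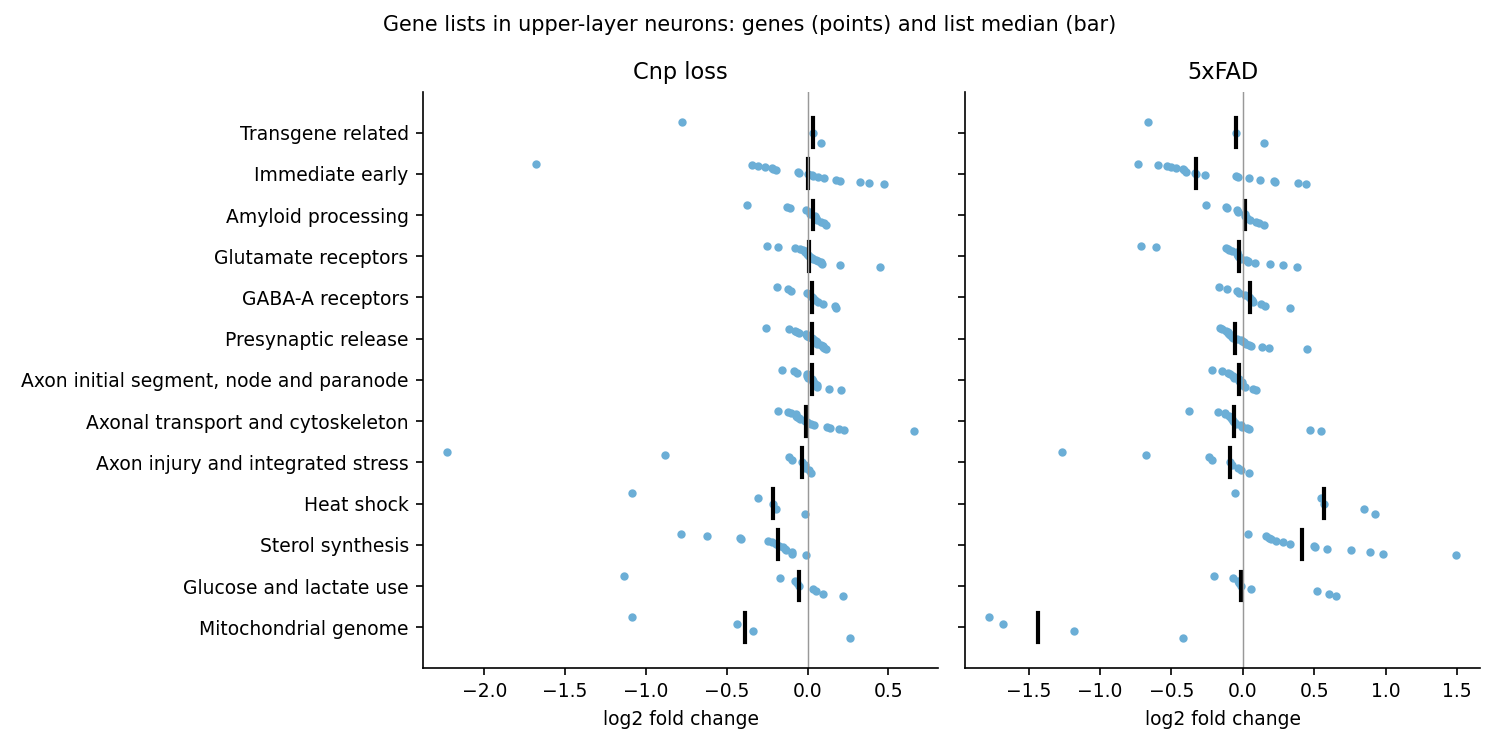
Log2 fold changes of the genes of each list in upper-layer neurons. Points are genes, bars are list medians, and the panels are loss of CNP and 5xFAD. The sterol synthesis genes lie above 0 for 5xFAD and below 0 for loss of CNP, while synaptic and axonal lists centre near 0, and no gene of a list passed the test.

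The last comparison asked whether genotype effects differed between upper-layer and deep-layer neurons. The deep-layer class gated on Fezf2 had 59 nuclei in all, 3 to 20 a library, so its levels rest on few UMIs. For loss of CNP edgeR called 3 of 14351 genes, 0.0209%, of which 2 were higher (0.0139%) and 1 lower (0.00697%) in the upper-layer effect. For 5xFAD it called 7, 0.0488%, with 5 higher (0.0348%) and 2 lower (0.0139%). These differences were not centred on 0, with a median over all genes of 0.203 for loss of CNP and 0.114 for 5xFAD. Kctd8, an auxiliary subunit of GABA-B receptors, had a log2 difference of 2.34 ± 0.47 for loss of CNP (edgeR adjusted p = 0.00867), Gpc5, a glypican, of 1.59 ± 0.34 and Sdk1, a synaptic adhesion molecule, of -1.82 ± 0.39 (adjusted p = 0.0142 for each). Kctd8 had 0 and 2 UMIs in the deep-layer nuclei of the Cnp-/-;5xFAD libraries and Sdk1 had 0 in those of WT replicate 1 and Cnp-/-;5xFAD replicate 1. The count for loss of CNP was 1 without WT replicate 1 or without Cnp-/-;5xFAD replicate 2, and 7 without WT replicate 2.

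For 5xFAD the calls other than Thy1 were Tshz2 at 2.19 ± 0.40 (edgeR adjusted p = 0.00026), Stxbp6, a regulator of vesicle fusion, at -1.78 ± 0.32 (adjusted p = 0.00026), St6galnac3, a sialyltransferase, at 1.29 ± 0.27, Egfem1 at 1.21 ± 0.26, Samd5 at 1.58 ± 0.36 and Gm2164 at 1.15 ± 0.26. Tshz2 had 1 to 112 UMIs a library in the deep-layer nuclei, where it marks a subtype. The count was 0 without Cnp-/-;5xFAD replicate 2, 2 without Cnp-/- replicate 2 and 3 without WT replicate 1.

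The 858 layer 6 neurons gave a deeper comparison class, with 39 to 174 nuclei a library. Against them edgeR called 8 of 14958 genes for loss of CNP, 0.0535%, all higher in the upper-layer effect, and 4 for 5xFAD, 0.0267%. These counts depended on single libraries, with 94 and 68 calls without Cnp-/-;5xFAD replicate 1, 94 and 90 without its replicate 2, 62 and 39 without WT replicate 2, 6 and 5 without WT replicate 1, and 12 to 22 and 6 to 20 without a Cnp-/- or 5xFAD library. Besides Thy1, the 5xFAD calls were Gm42418 at -2.04 ± 0.28, Rfx3, a transcription factor of ciliated cells, at 0.73 ± 0.12 and Wscd2 at 0.72 ± 0.12. For loss of CNP they included Chrm2, a muscarinic acetylcholine receptor, at 1.24 ± 0.19, Slit2, an axon guidance ligand, at 0.80 ± 0.12 and Lingo2 at 0.74 ± 0.11 (edgeR adjusted p = 0.0115 for each). With only cluster 1 set against layer 6, 10 of 12767 genes were called for loss of CNP, 0.0783%, and 2 for 5xFAD, 0.0157%. Lingo2 and Slit2 were among the former, at 0.85 ± 0.13 and 0.93 ± 0.13. Against layer 6 the 5xFAD difference of Tshz2, Samd5 and Egfem1 had the opposite sign, at -0.36, -0.24 and -0.041 with all members and -0.47, -0.32 and -0.014 with cluster 1.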

How the data were processed

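Single-nucleus libraries of 8 samples (4 genotypes, 2 libraries each) were used. Per the labels, the authors aligned reads to mm10 with Cell Ranger 6.1.2 (as given in the submitters' processing notes). According to the methods, they removed ambient counts with CellBender, filtered nuclei on genes, transcripts and per-sample limits, clustered them with Seurat and removed clusters of undefined identity. The deposited matrix holds counts of UMIs per gene and nucleus, and the authors' annotation gives cell type, cluster and sample of each nucleus. The deposited percent of mitochondrial counts per nucleus is the authors' value. Intron counting, use of strand and doublet treatment are not given in the sources used here. No doublet caller was run, and possible doublets were left out as an alternative.

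The members and gene lists were chosen with earlier results of these data known. Counts of members were summed per library and tested in R 4.3.3 with edgeR 4.0.16 (filterByExpr, TMM scaling, 1 mean per genotype, quasi-likelihood test, Benjamini-Hochberg adjusted p below 0.05). DESeq2 1.42.0 was an alternative. Fold changes are on the log2 scale. The SE of an edgeR fold change is its size divided by the square root of the test's F value. It is not a separate estimate of the error at low counts. Genes were named by rule: per comparison, among called genes with groups that did not overlap and a mean of at least 5 CPM, up to 12 rises and 12 falls. Where fewer than 5 passed, the 5 smallest p were given as values. For differences between classes the 8 smallest adjusted p among calls were named, and of each list the most abundant genes. Hmgcs1, Rorb, Krt20, Grik1, Grin3a, Vamp2, mt-Atp6, Drd2 and the layer 6 calls named were chosen after their values were seen. Shares were tested by exact permutation over libraries (70 relabellings), and the upper limit at a count of 0 is 3 counts, which covers counting error only.

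Alternatives were scaling, filter, test, replicate block, stricter gate, the denominators of the share, equal numbers of nuclei, thinning to 5000 UMIs, the deep-layer class and each library left out. Fits within the authors' clusters 1 and 5, without cluster 0, without shared barcodes and of cluster 1 against layer 6, and the share of neurons in clusters 1 and 5 without the gate, were added after seeing the data. The scripts were tested on simulated counts. Gene positions matched for 98.3% of tested genes (GENCODE M21, GRCm38).
Some genes of the lists, 1 upper-layer marker among them, are counted in their list but not reported here by name.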

Additional observations from a re-analysis of the deposited data

Results flagged for a closer look

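Differences between upper-layer and deep-layer neurons in their response to genotype that passed the test of the difference itself (edgeR, upper-layer minus the Fezf2 class) are listed here. With all libraries, effects under 1 contrast then differed between classes of neurons, but the 5xFAD count fell to 0 without Cnp-/-;5xFAD replicate 2. For 5xFAD these log2 differences were 2.19 for Tshz2, -1.78 for Stxbp6, 1.29 for St6galnac3, 1.21 for Egfem1, 1.15 for Gm2164, 1.58 for Samd5 and -2.00 for Thy1. For loss of CNP they were 2.34 for Kctd8, -1.82 for Sdk1 and 1.59 for Gpc5. The median difference over all genes was 0.203 for loss of CNP and 0.114 for 5xFAD. The deep-layer class rests on 3 to 20 nuclei a library. Tshz2 had 3 and 62 UMIs there in WT, 112 and 66 in Cnp-/-, 24 and 25 in 5xFAD and 2 and 1 in Cnp-/-;5xFAD. Stxbp6 had 3 and 36, 14 and 2, 43 and 28, and 17 and 37 UMIs in the same order. Of the 10, Thy1 was also called against layer 6 neurons, at -1.51, and Gpc5 when cluster 1 was set against layer 6, at 2.88. Against layer 6 with all members Tshz2, Samd5 and Egfem1 turned sign, at -0.36, -0.24 and -0.041, and Sdk1 against the Fezf2 class ranged from -6.92 to 4.49 with each library left out.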

How the results depend on the processing

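Replicate numbers did not pair the libraries: deviations of same-numbered libraries correlated at -0.30 to 0.25. With the replicate block the calls were 4 for loss of CNP, 0 for 5xFAD, 0 for the interaction and 2 for Cnp-/-;5xFAD against 5xFAD, and the share tests gave exact permutation p = 0.722 for loss of CNP and 0.111 for 5xFAD. For loss of CNP edgeR called 148 genes with no filter and 2 in cluster 5 only, and DESeq2 called 16. For 5xFAD the counts were 291 with no filter and 27 with DESeq2. For the interaction they were 524 with no filter, 204 with DESeq2, 1 with equal nuclei and 10 in cluster 5 only. For Cnp-/-;5xFAD against 5xFAD they were 390 with no filter and 123 with DESeq2, and 2 with the stricter Cux2 gate, without possible doublets, with equal nuclei, in cluster 1 or 5 only and without cluster 0. Between classes, loss of CNP gave 8 calls against layer 6 and 10 for cluster 1 against layer 6, and 5xFAD gave 4 with no filter, 4 against layer 6 and 2 for cluster 1 against layer 6.

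With each library left out the calls ranged from 4 to 5 for loss of CNP, 0 to 23 for 5xFAD, 0 to 36 for the interaction, 2 to 35 for Cnp-/-;5xFAD against 5xFAD, and between classes from 1 to 7 for loss of CNP and 0 to 9 for 5xFAD. The share difference ranged from -0.403 to 3.92 points for CNP and 4.79 to 8.08 for 5xFAD, that of Rorb members from 1.83 to 7.59 and 3.36 to 8.80. Signs turned for Gm14211 in cluster 5 only (-0.37), for Tshz2 (-0.36 and -0.47), Egfem1 (-0.041 and -0.014) and Samd5 (-0.24 and -0.32) against layer 6 with all members and with cluster 1, for Gm2164 with cluster 1 (-0.018), and for Sdk1 without Cnp-/-;5xFAD replicate 2 (4.49, with each library left out -6.92 to 4.49). The cause was not tested.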

Other observations

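In cluster 5 alone, the interaction of CNP loss and 5xFAD had 10 calls, all at the same edgeR adjusted p of 0.0480. Fstl5, Sccpdh, Cdh9, Cep112 and Eda were lower (log2 -5.25 to -1.66) and Hs3st4, Dcc, Zfp385b, Utrn and Appl2 higher (1.03 to 3.58) in this contrast. These genes were named after their values were seen.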
